A study of Mus musculus with 2 samples.

Results

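The entries RP23-81C12.1, RP23-81C12.3 and AY036118 are grouped here as transcripts derived from ribosomal DNA (rDNA), the repeated genes for ribosomal RNA (rRNA). That origin was examined by sequence for AY036118 only. All rows with these 3 gene symbols were taken after both libraries were joined on the Ensembl ID, which gave 4 of 48876 transcripts and 3 of 24117 symbols. RP23-81C12.1 had 2 transcripts, and RP23-81C12.3 and AY036118 had 1 each. They were chosen from the read counts and ratios of these same libraries, so their values are given as a description without a test.

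The data are 1 library of RNA isolated with chromatin from cells expressing 3xFN-Tel-TAL and 1 library from cells expressing 3xFNLDD. Both were made from Ba/F3, a mouse hematopoietic cell line of strain C3H, and both proteins carry a 3xFLAG tag through which the anti-FLAG M2 antibody precipitated the crosslinked chromatin. 3xFN-Tel-TAL is a transcription activator-like protein that recognizes telomeric repeats, and 3xFNLDD contains the bacterial LexA protein and served as negative control. The comparison addresses which RNAs took a larger share of the reads in chromatin isolated with 3xFN-Tel-TAL. A share of reads does not give the amount of an RNA in the isolate. The read counts summed to 7206183 for 3xFNLDD and to 9774844 for 3xFN-Tel-TAL. Of 10 hematopoietic marker genes, 8 had reads in both libraries and Spi1 had none in either, and the list summed to 229 RPM (reads scaled to a library total of 1000000) under 3xFNLDD against 303 RPM under 3xFN-Tel-TAL. These are pooled cells, so more RNA of one kind per cell and more cells that yield it cannot be told apart. The other markers were low. The 5 fibroblast markers summed to 5.83 and 2.35 RPM with Col3a1 at 0, the 4 epithelial markers to 1.67 and 1.02 RPM with Epcam at 0, the 2 neuronal markers to 2.50 and 1.74 RPM, and the 2 hepatocyte markers to 0.278 and 0 RPM with Alb at 0 in both.

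In the nucleolus, RNA polymerase I transcribes rDNA into a long precursor that holds the 18S, 5.8S and 28S rRNAs. Transcribed spacers lie between and around these rRNAs and are cut away as the precursor matures, so spacer sequence marks the precursor whereas rRNA sequence is shared by the precursor and the ribosome. The U3 small nucleolar RNA takes part in the early cleavages, and the RNA-protein enzyme built around Rmrp cuts within the first internal spacer, between 18S and 5.8S.

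AY036118 (ENSMUST00000062783) was the only one of the 4 transcripts held by the annotation used here, GENCODE M1 on NCBIM37. It is annotated as a pseudogene at chr17:39985048-39985772, a span of 725 bases read from the reverse strand. Its 4 exons of 189, 33, 462 and 30 bases are separated by gaps of 4, 5 and 2 bases. On the forward strand of the same place, the letters TACCTGGTT that open the 18S rRNA and the letters GGATCATTA that close it each occurred once, and on the reverse strand neither occurred, between 4000 bases before AY036118 and 1000 bases after it. They enclosed 1849 bases from 39983298 to 39985146. The first 99 bases of the AY036118 span therefore lay within this 18S stretch. The other 626 bases lay past its end and are called the spacer here because of that position. Of the 714 exon bases, 86.4% were past the end of 18S.

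The boundary is shown because reads counted for AY036118 can come from either side of it. The stretch chr17:39985048-39985197 of NCBIM37 is given on the forward strand, the sense of the rRNA, with 18S bases in capitals.
18S end and spacer start: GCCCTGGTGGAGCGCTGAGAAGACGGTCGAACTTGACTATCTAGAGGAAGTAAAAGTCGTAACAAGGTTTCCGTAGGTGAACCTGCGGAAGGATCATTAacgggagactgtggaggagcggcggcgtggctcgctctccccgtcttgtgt

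Exon 1 of AY036118, chr17:39985584-39985772, is the part farthest from 18S and lies wholly in the spacer. It is given on the annotated reverse strand, which is the complement of the rRNA.
AY036118 exon 1: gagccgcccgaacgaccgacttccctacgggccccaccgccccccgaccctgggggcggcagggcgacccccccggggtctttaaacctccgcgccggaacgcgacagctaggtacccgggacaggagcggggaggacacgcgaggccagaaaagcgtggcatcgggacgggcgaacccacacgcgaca

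The GC content was 49.5% in the 18S part of AY036118 and 71.2% in its spacer part, and it was 37.8% in the next 500 bases past the span. RefSeq places AY036118 on chromosome 17 of GRCm38.p6 as a long non-coding RNA from 39848112 to 39898385 and the 18S pseudogene Rn18s-rs5 from 39846354 to 39848202. Rn18s-rs5 has the same length of 1849 bases as the 18S stretch found above, and it overlaps AY036118 by 91 bases. RefSeq thus gives AY036118 a much longer model than the 725 bases in GENCODE M1. The rDNA origin of AY036118 therefore rests on the 18S letters, the shared length and the position beside that stretch. No reference sequence of the rRNA precursor was aligned to it. An rDNA origin could not be examined for RP23-81C12.1 and RP23-81C12.3, which have no position or sequence in the reference used here. Their shared prefix names the genomic clone from which both gene models were annotated.

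**Figure D1:**
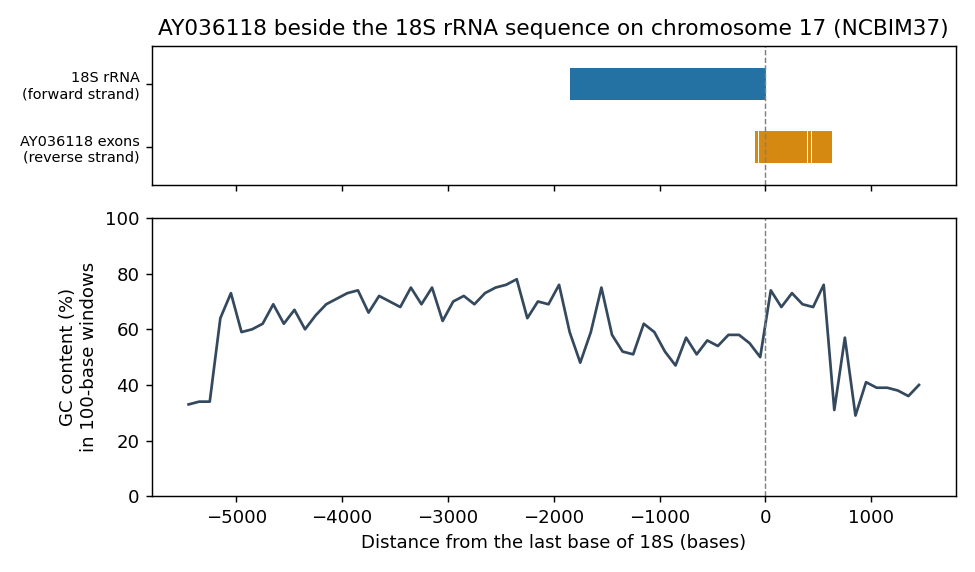
AY036118 beside the 18S rRNA on chromosome 17 of NCBIM37. The x axis is the distance in bases from the last base of 18S, the upper panel shows 18S and the 4 AY036118 exons as bars, and the lower panel shows GC content in percent in windows of 100 bases. AY036118 covers the last 99 bases of 18S and 626 bases of the GC-rich spacer behind it, and GC content is lower past its end.

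Copies of the AY036118 sequence elsewhere in NCBIM37 were short or diverged. A BLAST search of the 725 bases found 9 other matches. The 4 of them that ended less than 10 bases past the 18S end were 39 to 85 bases long and 90.6% to 97.4% identical. The 5 that covered spacer bases were 78 to 308 bases long and 73.3% to 79.4% identical. Reads from the 18S end could thus also align elsewhere, whereas the search found no copy of the spacer part above 79.4% identity. The rDNA arrays themselves were not examined. One of the 18S matches, chr11:22609205-22609262, is taken as the copy in the pseudogene Gm12054, whose counts are compared with AY036118 here. Gm12054 lies on chromosome 11 and matches 18S from base 1456 to 1806, whereas AY036118 matches it from base 1751. The AY036118 stretch and this copy are shown on the forward strand, with bases that differ in capitals.
AY036118, chr17:39985048-39985105: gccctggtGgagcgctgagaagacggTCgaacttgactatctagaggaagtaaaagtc
Gm12054 copy: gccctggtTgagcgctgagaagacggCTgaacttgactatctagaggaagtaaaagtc

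These 58 bases differed at 3 positions. The telomeric repeat letters TTAGGG, or CCCTAA on the other strand, occurred 0 times in the AY036118 span and 0 times in the 2475 bases from the start of 18S to its end. The nearest past the AY036118 span began 456 bases behind its end. Of 126714 stretches of 725 bases along chromosome 17, 24.8% held these letters. These stretches were not matched to AY036118 in GC content, and binding of 3xFN-Tel-TAL at this place was not tested.

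RP23-81C12.3 (ENSMUST00000182010) had the most reads of all transcripts in both libraries. The 3xFNLDD library counted 1783431 of them, or 24.7% of its total (exact 95% Clopper-Pearson interval 24.7% to 24.8%). The 3xFN-Tel-TAL library counted 1965441, or 20.1%. More reads were counted in 3xFN-Tel-TAL, but they made up a smaller share of the deeper library. The ratio of RPM, 3xFN-Tel-TAL over 3xFNLDD, was 0.812, with a 95% interval of 0.811 to 0.814, and its log2 was -0.30. These intervals compare 2 libraries and cover counting error only, since sequenced PCR copies are not independent molecules and no condition had a second library.

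RP23-81C12.1 had the opposite direction. Its transcript ENSMUST00000183314 made up 5.24% of the 3xFNLDD library with 377835 reads, and 12.5% of the 3xFN-Tel-TAL library with 1218185 reads. The log2 ratio was 1.25 (95% interval 1.24 to 1.25). The second transcript, ENSMUST00000182520, took 1.51% of the 3xFNLDD library (109071 reads) but 3.55% of the other (347206 reads), and its log2 ratio was 1.23 (95% interval 1.22 to 1.24). Among all transcripts ordered by reads, ENSMUST00000183314 was at place 5 in 3xFNLDD and at place 3 in 3xFN-Tel-TAL, and ENSMUST00000182520 was at places 9 and 8. Summed over both transcripts, RP23-81C12.1 amounted to 486906 reads under 3xFNLDD and 1565391 under 3xFN-Tel-TAL, a share of 6.76% against 16.0%. Its RPM was 2.37-fold higher under 3xFN-Tel-TAL, which is a log2 ratio of 1.24 (95% interval 1.24 to 1.25).

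Both transcripts of RP23-81C12.1 kept nearly the same proportion. ENSMUST00000182520 held 22.4% of the symbol's reads under 3xFNLDD and 22.2% under 3xFN-Tel-TAL. Its log2 ratio minus that of ENSMUST00000183314 was -0.018 (95% interval -0.030 to -0.0072). The way reads were assigned to transcripts that overlap is not given in the sources used here, so the 2 transcripts are not independent measurements.

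AY036118 made up 1.01% of the 3xFNLDD library with 72829 reads, and 2.14% of the 3xFN-Tel-TAL library with 209508 reads. It was at place 11 by reads in 3xFNLDD and at place 10 in 3xFN-Tel-TAL. Its RPM was 2.12-fold higher under 3xFN-Tel-TAL, which is a log2 ratio of 1.08 (95% interval 1.07 to 1.10). By length, AY036118 was at 14155 RPM per kb of exon in 3xFNLDD and at 30019 RPM per kb in 3xFN-Tel-TAL. All values per length given here use GENCODE M1 exon lengths, 714 bases for AY036118. They depend on that model, which may differ from the annotation behind the counts. The library kit marks no strand, so reads of the rRNA precursor and reads of a transcript from the AY036118 strand cannot be told apart.

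**Figure D2:**
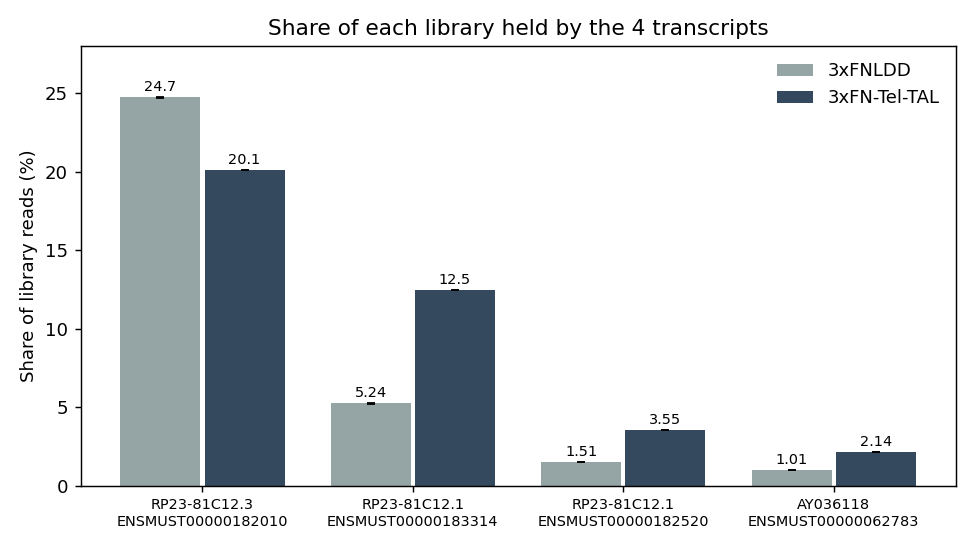
Share of each library, in percent of its reads, held by the 4 transcripts. Bars are single libraries, 3xFNLDD in grey and 3xFN-Tel-TAL in dark blue, and error bars are exact 95% intervals for counting error. RP23-81C12.3 held 24.7% and 20.1%, whereas both RP23-81C12.1 transcripts and AY036118 had the larger share in 3xFN-Tel-TAL.

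Together the 4 transcripts took 32.5% of all reads with 3xFNLDD but 38.3% with 3xFN-Tel-TAL. The difference of 5.75 percentage points was made up of 9.26 points more for RP23-81C12.1, 1.13 points more for AY036118 and a change of -4.64 points for RP23-81C12.3. The log2 ratio of the sum was 0.23 by library totals, and its direction turned with the scaling: it was -0.13 with the trimmed mean of M values (TMM) and -0.081 with totals that leave out RNAs above 1% of a library. A share this large bears on every ratio in the data. When the 4 transcripts were left out of the library totals, all log2 ratios moved by 0.13.

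Ratios within a library do not depend on the scaling. For every 100 reads of RP23-81C12.3 there were 27.3 reads of RP23-81C12.1 in 3xFNLDD (95% interval 27.2 to 27.4) and 79.6 in 3xFN-Tel-TAL (95% interval 79.5 to 79.8). This ratio was 2.92-fold higher in 3xFN-Tel-TAL, a difference in log2 ratio of 1.54 (95% interval 1.54 to 1.55). For every 100 reads of RP23-81C12.1 there were 15.0 reads of AY036118 in 3xFNLDD (95% interval 14.8 to 15.1) and 13.4 in 3xFN-Tel-TAL (95% interval 13.3 to 13.4). The log2 ratio of AY036118 was thus 0.16 below that of RP23-81C12.1 (difference -0.16, 95% interval -0.17 to -0.15), a small gap beside the 1.38 that separated AY036118 from RP23-81C12.3. Which of these gaps exceed the variation between repeated isolations is unknown, because no library was repeated.

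The transcripts with higher shares in 3xFN-Tel-TAL were not alone in their direction. Of the 2473 RNAs that reached 200 reads over the pair of libraries, 980 (39.6%) had a ratio above 1.4, the threshold set by the study, and 191 (7.72%) had a ratio below 1/1.4. Of the 4 transcripts, 3 were above 1.4-fold and none was below 1/1.4-fold. The median log2 ratio of the 2473 RNAs was 0.37. In this order, 201 RNAs were higher than summed RP23-81C12.1, 279 were higher than AY036118 and 266 were lower than RP23-81C12.3. By reads, however, the 4 transcripts were all among the top 11 in each library. Of the 20 RNAs with the most reads besides the 4 transcripts, 8 were above 1.4-fold and 3 below 1/1.4-fold. Of these 20, 12 had a log2 ratio below 0, whereas 1929 of the 2473 RNAs had one above 0.

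**Figure D3:**
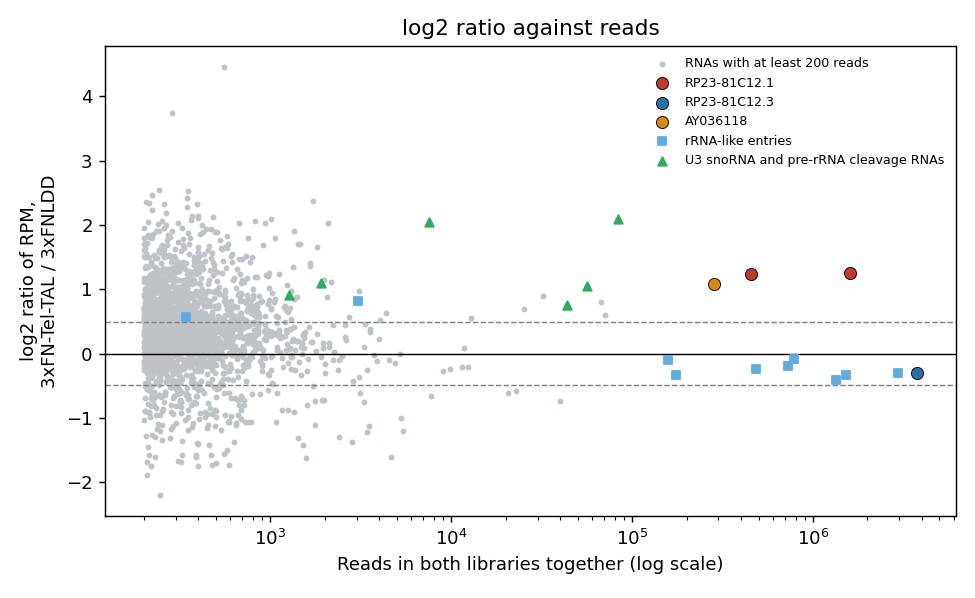
log2 ratio of RPM, 3xFN-Tel-TAL over 3xFNLDD, against the reads in both libraries together on a log scale, for the 2473 RNAs with at least 200 reads. Dashed lines mark ratios of 1.4 and 1/1.4. Both RP23-81C12.1 transcripts and AY036118 lie above 1 on the log2 scale, whereas RP23-81C12.3 lies at -0.30 beside the most deeply read rRNA-like entries (squares).

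The RNAs nearest in log2 ratio were sought among those 20, with the size of the difference over the 2 libraries as the measure. Nearest to RP23-81C12.3 were Mir5105 (-0.30, a distance of 0.0025), Gm23935 (-0.33, distance 0.031) and Mir5109 (-0.34, distance 0.039). Nearest to both RP23-81C12.1 and AY036118 were Rmrp, Gm22068 and Gm22405. Rmrp counted 14692 reads with 3xFNLDD against 41257 with 3xFN-Tel-TAL. Its log2 ratio of 1.05 was at a distance of 0.20 from RP23-81C12.1 and of 0.035 from AY036118. Gm22068 was at 0.90 and Gm22405 at 0.80. With 2 libraries this likeness rests on 1 ratio per RNA.

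The scaling moved the values of the 3 symbols but not the direction of any one of them. By TMM, which puts the typical RNA near 0 (median of the 2473 RNAs 0.0060), the log2 ratio was 0.88 for RP23-81C12.1, 0.72 for AY036118 and -0.67 for RP23-81C12.3. RP23-81C12.1 and AY036118 were above 1.4-fold under each of the 5 alternative scalings. Each scaling moves all RNAs by the same amount, so this reflects only the size of the shifts beside the values. RP23-81C12.3 was between 1/1.4-fold and 1.4-fold by library totals, and below 1/1.4-fold under 4 of the 5 alternatives, which are TMM with and without a filter on low counts, median-of-ratios size factors and totals that leave out RNAs above 1% of a library. With TMM, 17.8% of the 2473 RNAs were above 1.4-fold and 16.5% were below 1/1.4-fold.

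**Figure D4:**
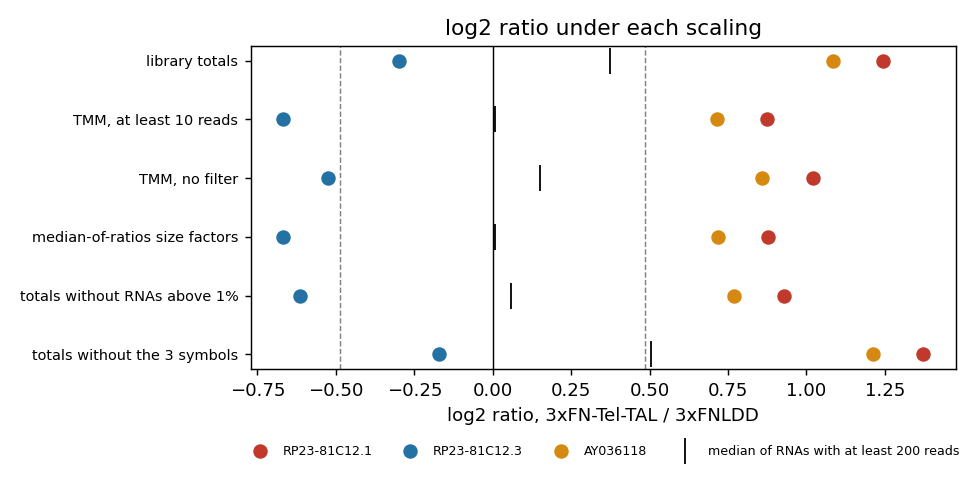
log2 ratio, 3xFN-Tel-TAL over 3xFNLDD, of each symbol under library totals and 5 other scalings (rows). Points are the summed transcripts of a symbol, black ticks the median of the RNAs with at least 200 reads, and dashed lines ratios of 1.4 and 1/1.4. RP23-81C12.1 lies between 0.88 and 1.37, AY036118 between 0.72 and 1.21, and RP23-81C12.3 between -0.67 and -0.17.

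Entries that match the 18S or spacer sequence were compared next. Of the 45887 listed transcripts in the annotation, 3 besides AY036118 matched the 18S stretch over at least 50 bases at 75% identity or more, and 0 matched the spacer part. The 2989 listed transcripts outside the annotation, all those of RP23-81C12.1 and RP23-81C12.3 among them, could not be searched. Gm12054, a processed pseudogene of 378 bases on chromosome 11, matched 18S along nearly its whole length, in antisense like AY036118, at 78.0% identity. Its share went from 0.964% (69471 reads, 3xFNLDD) to 0.903% (88284 reads, 3xFN-Tel-TAL), which gave a log2 ratio of -0.094 (95% interval -0.11 to -0.080). Gm12913, a pseudogene on chromosome 4 with an antisense match of 88.5% identity, was at -0.72 with 1064 and 874 reads (95% interval -0.85 to -0.59). The third, a retained intron of Slc22a19 with a match of 68 bases in 3574, had 24 and 56 reads (log2 ratio 0.78, 95% interval 0.069 to 1.54). Both pseudogenes thus had log2 ratios below 0. They were named after their values were seen, and the files do not tell reads of the 18S part of AY036118 from reads of its spacer part.

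Within the libraries, AY036118 and Gm12054 had similar counts in 3xFNLDD and not in 3xFN-Tel-TAL. For every 100 reads of Gm12054 AY036118 had 105 under 3xFNLDD against 237 under 3xFN-Tel-TAL, a difference in log2 ratio of 1.18 (95% interval 1.16 to 1.20). The same comparison for RP23-81C12.3 gave -0.21 (95% interval -0.22 to -0.19). Per length, Gm12054 stood at 25504 RPM per kb in 3xFNLDD, above AY036118, and at 23894 RPM per kb in 3xFN-Tel-TAL, below it.

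A list of entries treated here as rRNA-like was fixed by name and held 48 symbols, most of them 5S rRNA copies. Of its most-read entries Gm12054 alone matched the sequences searched, and 28S was not searched, so rRNA sequence in the others was not tested. Of the 48, 10 reached 20 reads over the pair of libraries. Of all 16468 RNAs that did so, 44.2% exceeded 1.4-fold and 11.1% lay under 1/1.4-fold, with a median log2 ratio of 0.39. Of the 10 rRNA-like entries, 2 were above and 0 below, with a median of -0.22. The 8 most-read of them, which include Mir5105, Gm23935, Gm15662 and Lars2, lay between -0.40 (Gm15662) and -0.078 (Lars2). Rn5s, the 5S rRNA made by RNA polymerase III from separate genes, was at 0.81 (901 and 2145 reads), and its copy n-R5s193 was at 0.57. The 5.8S entry n-R5-8s1, which the names in the list missed, had 986 and 1603 reads and was at 0.26 (95% interval 0.15 to 0.38), or -0.11 with TMM, unlike the 8 most-read entries, which lay below 0 under both scalings. RP23-81C12.3 and these entries together took 78.0% of all reads under 3xFNLDD and 63.9% under 3xFN-Tel-TAL. With RP23-81C12.1 and AY036118 added, the shares were 85.8% and 82.0%. With TMM, 6 of the 10 were below 1/1.4-fold and 0 were above 1.4-fold. Of all RNAs with at least 20 reads, 22.6% were below and 24.6% above under that scaling.

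RNAs put on a list for cleavage of the rRNA precursor had log2 ratios above 0, as RP23-81C12.1 and AY036118 did. So did 11952 of all 16468 RNAs with at least 20 reads, other small RNAs among them. Of the small RNAs outside the list, the snoRNA Snord17 was at 2.37 (215 and 1512 reads) and the telomerase RNA Terc at 0.78 (292 and 679 reads). Rn7sk, which acts on RNA polymerase II elongation, was at 0.60. Of 11 symbols, 8 were listed, and all 7 with at least 20 reads were above 1.4-fold, against 44.2% of all RNAs at this minimum, with a median log2 ratio of 1.10. The U3 RNAs had the highest values. Rnu3b3 counted 12369 reads under 3xFNLDD but 71578 under 3xFN-Tel-TAL, which put it at 2.09 (95% interval 2.07 to 2.12), and Rnu3a was at 2.05 with 1142 and 6400 reads. The lowest were Rpph1, the RNA of ribonuclease P, at 0.76 and the U17 RNA Snora73a at 0.91. Whether Rpph1 acts on the rRNA precursor was not examined. Per length, Rnu3b3 was at 8021 RPM per kb in 3xFNLDD and at 34218 RPM per kb in 3xFN-Tel-TAL, below AY036118 in the first library and above it in the second. With TMM, 6 of the 7 were above 1.4-fold, against 24.6% of all RNAs at this minimum, and the median was 0.73. The study selected RNAs by their ratios in the same libraries, among them Rmrp, Snora73a, Snora73b, Snord118, Snord17 and Terc. The list and the values of Snord17 and Terc are therefore not independent evidence of a direction.

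The messenger RNAs of rRNA synthesis were shallow by comparison. All 23 symbols of RNA polymerase I and its factors were listed, and 25 transcripts from 17 of them had at least 20 reads. Several transcripts of 1 symbol are counted separately and are not independent. Of these, 14 (56.0%) exceeded 1.4-fold, against 44.2% of all RNAs at this minimum, and 2 lay under 1/1.4-fold, against 11.1%. The median was 0.56, beside 0.39 over all of them. Examples are single transcripts, the 2 highest and 2 lowest with at least 200 reads. The most-read transcript of Ubtf, the factor that binds along active rDNA, had 93 and 208 reads (log2 ratio 0.72, 95% interval 0.36 to 1.09), and all 9 of its transcripts summed to 137 and 326 reads (0.81). Baz2a, a subunit of a complex that silences rDNA, had 137 and 309 reads (0.73, 95% interval 0.44 to 1.03). Ttf1, the factor that ends RNA polymerase I transcription, had 124 and 218 reads in this transcript (0.37, 95% interval 0.050 to 0.70) and 141 and 236 in all 3 (0.30, 95% interval -0.0038 to 0.61). Tbp, a subunit of the initiation factor, was at 0.48 (114 and 216 reads). With TMM, 8 of the 25 were above and 6 below, where 24.6% and 22.6% of all RNAs at this minimum were.

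Of the proteins that process the precursor, all 39 symbols were listed, and 59 transcripts from 38 of them had at least 20 reads. Of these, 12 (20.3%) exceeded 1.4-fold, a smaller share than the 44.2% of all RNAs at this minimum. Under 1/1.4-fold lay 5, where 11.1% of all RNAs at this minimum did. The median was 0.20, below the 0.39 over all of them, and -0.17 with TMM. By TMM, 7 of the 59 were above 1.4-fold and 18 below 1/1.4-fold, where 24.6% and 22.6% of all RNAs at this minimum were. Nolc1, a nucleolar phosphoprotein, had 86 and 206 reads (0.82, 95% interval 0.45 to 1.20). The helicase Ddx21 was at 0.47 with 151 and 283 reads. Nucleolin (Ncl) had 368 and 579 reads (0.21, 95% interval 0.023 to 0.41), and the most-read transcript of Nop56, a core protein of C/D snoRNAs, had 86 and 119 reads (0.029, 95% interval -0.38 to 0.45). All 12 Nop56 transcripts summed to 220 and 364 reads (0.29, 95% interval 0.041 to 0.53), and one of them, with 8 and 56 reads, had the highest log2 ratio of the list (2.37).

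**Figure D5:**
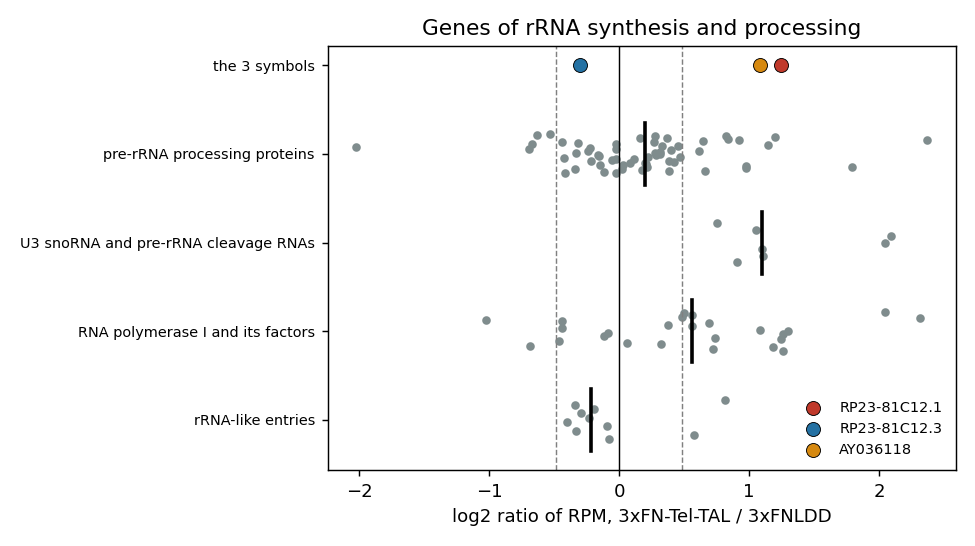
log2 ratio of RPM, 3xFN-Tel-TAL over 3xFNLDD, for the summed transcripts of the 3 symbols (coloured points, top row) and for transcripts with at least 20 reads in 4 lists (grey points, black bars at the medians). Dashed lines mark ratios of 1.4 and 1/1.4. RP23-81C12.1 and AY036118 lie beside the cleavage RNAs with a median of 1.10, and RP23-81C12.3 beside the rRNA-like entries with a median of -0.22. TMM would move all points to the left by the same amount and turn the median of the processing proteins to -0.17.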

How the data were processed

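RNA from 1 enChIP isolate per condition was sequenced, and samples were grouped by their titles. The authors deposited read counts per Ensembl transcript, not normalized, and RPM, the count scaled to a library total of 1000000 reads. The submitters' processing notes name cutadapt and the builds GRCm38 and mm10. The aligner, the annotation and the handling of reads with several matches are not given in the sources used here.

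Counts were joined on Ensembl ID. They were summed per symbol for the 3 symbols, and the gene lists were counted by transcript. The log2 ratio of RPM was computed without a pseudocount, with exact 95% Clopper-Pearson intervals for counting error. Intervals of differences between log2 ratios use a normal approximation on the counts. The limit that a count of 0 allows, 3 reads, equals 0.416 RPM for 3xFNLDD and 0.307 RPM for 3xFN-Tel-TAL. With 1 library per condition no p-value is given. Python 3.11.15, numpy 2.4.6, scipy 1.17.1 and pandas 2.3.3 were used, with TMM from edgeR 4.0.16 in R 4.3.3 and sequence searches by BLAST 2.17.0+. The computation of ratios and intervals was checked on counts simulated with counting error only, where the changed RNAs had smaller shares than the members. That check does not cover variation between isolations. Positions and sequences are from GENCODE M1 on NCBIM37, which is not the build of the deposited counts, and from RefSeq tables on GRCm38.p6.

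The members, the gene lists and the rule for named genes were chosen with earlier results of these data known. The rule names every transcript of the 3 symbols, for each symbol the 3 nearest of the 20 most-read other RNAs, and from each list the 2 top and 2 bottom log2 ratios among RNAs of at least 200 reads. Entries that match 18S, small RNAs outside the lists, and list members beyond the rule were named in addition after their values were seen.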

Additional observations from a re-analysis of the deposited data

How the results depend on the processing

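No paired analysis was possible because each protein had only 1 library, which also means that none could be left out. The direction of each single symbol's log2 ratio was the same under all alternatives run. For RP23-81C12.1 (1.24 by library totals) the log2 ratio was 0.88 with TMM, 1.02 with TMM without a filter, 0.88 with median-of-ratios size factors, 0.93 with totals without RNAs above 1% and 1.37 with totals without the 3 symbols. In the same order it was -0.67, -0.52, -0.67, -0.62 and -0.17 for RP23-81C12.3, and 0.72, 0.86, 0.72, 0.77 and 1.21 for AY036118. The sum of the 3 symbols (0.23), an alternative added after seeing the data, turned: it was -0.13, 0.0096, -0.13, -0.081 and 0.36. Each scaling shifts all RNAs alike by construction. A pseudocount of 1, and for RP23-81C12.1 the transcript with the most reads alone, left values within the counting intervals. With that transcript alone, RP23-81C12.1 reads per 100 RP23-81C12.3 reads were 21.2 and 62.0, and AY036118 reads per 100 RP23-81C12.1 reads were 19.3 and 17.2.

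The counts above 1.4-fold and below 1/1.4-fold (980 and 191) were 441 and 408 with TMM, 489 and 352 with totals without RNAs above 1%, 1292 and 152 with totals without the 3 symbols, 4281 and 759 at 50 reads, 52 and 27 at 1000 reads, 12603 and 6167 with 1 read in each library, and 316 and 66 at a threshold of 2. Depth does not limit the members' values, which rest on at least 72829 reads per library, but the absence of a second library does.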
